A study of Mus musculus with 18 samples.

Results

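The atria of infarcted mouse hearts were compared with the infarcted region of the left ventricle (LV) of such hearts under liraglutide, a stable agonist of the receptor for glucagon-like peptide 1 (GLP-1). The libraries were taken by their labels: 3 from atria and 3 from infarcted LV, all with liraglutide, or 6 of the 18 libraries of the series. Every mouse was a male of the inbred strain C57BL/6J whose left anterior descending coronary artery had been tied, and tissue was taken on day 3 after the ligation. The atrial libraries are therefore atria of infarcted hearts and not of healthy ones. Side by side with this comparison stand atria against infarcted LV with PBS, the vehicle (6 other libraries), and the same 3 atrial libraries against 3 of non-infarcted LV with liraglutide. Sham operation is named in the labels, but no sham library was analysed here. The sources used here do not give the dose and schedule of liraglutide, the number of animals, any pooling of tissue, or whether regions with the same replicate number came from 1 heart. The labels call the libraries biological replicates, so each p-value of a fit with all libraries measures the spread between 3 libraries a group.

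Atria and ventricles are built from different cardiomyocytes. Atrial muscle works at low pressure, contracts and relaxes fast, uses its own myosin light chains and stores natriuretic peptide, and its wall holds the pacemaker tissue. Ventricular muscle works at high pressure and depends heavily on the oxidation of fatty acids. Closing the left anterior descending artery cuts the blood supply of the LV wall, whose dying muscle draws in neutrophils and monocytes and later fibroblasts, while the atria are not in the territory of that artery. In mice the GLP-1 receptor has been reported in atrial muscle.

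Levels are in CPM, a gene's count scaled to a common library total, given for replicates 1, 2 and 3 in that order. Fold changes are log2 values of atria over infarcted LV with a standard error (SE), from edgeR's quasi-likelihood test on the counts, and every adjusted p is its Benjamini-Hochberg value over all genes tested, with a threshold of 0.05. The atrial libraries held 13849938, 14945902 and 21853482 counts and the infarcted ones 10850737, 11181101 and 8211804. When all 6 were thinned to the smallest total, 5451 genes passed, against 5817 at full depth.

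The labels were checked against marker genes before any comparison. Atrial myosin light chain Myl7 and the natriuretic peptide gene Nppa were high in all 3 atrial libraries and low in all 3 infarcted ones, as described below. Myl2, the ventricular regulatory light chain, was high in all 3 infarcted libraries, but it also stood at 275 CPM in atrial replicate 1 and at 924 CPM in atrial replicate 3, against 8.30 CPM in replicate 2. Myl2 in the atrial libraries amounted to 3.28%, 0.0988% and 11% of the mean of infarcted LV. Results that this touches are given with and without both libraries. Without both, a single atrial library is left, so no p-value or count of genes passing is given for that fit. The infarcted libraries carried few transcripts of Spp1 and Arg1, genes of infarct macrophages, and of Cthrc1, a gene of scar-forming fibroblasts, all named after their values were seen. Spp1 averaged 0.336 CPM in atria and 1.13 CPM in infarcted LV. Arg1 averaged 0.304 CPM in atria and 0.304 CPM in infarcted LV, and Cthrc1 0.442 CPM in atria and 0.181 CPM in infarcted LV. Postn, a matrix protein of activated fibroblasts, averaged 82.2 CPM in infarcted LV and 38.3 CPM in non-infarcted LV. How much necrotic, border or surviving muscle the dissected region held was not tested. In bulk tissue, fewer cells of a type and less of a transcript per cell cannot be told apart, and this holds for every difference given here.

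The table lists 25230 gene symbols, of which 6477 were at 0 in the 6 libraries and 5296 had too few counts to be tested. Of 13457 genes tested, 5817 (43.2%) differed between atria and infarcted LV, 2968 of them (22.1%) higher and 2849 (21.2%) lower in the atria. The median log2 fold change of all genes tested was 0.02. Large differences lay mostly on the atrial side. At 16-fold or more, 162 of the genes that passed were higher and 16 lower in the atria, and at 64-fold or more 54 were higher and 2 lower. At 2-fold or more the counts were 1219 higher and 1253 lower. These counts include atrial replicates 1 and 3, which carried Myl2 as given above. Without both, Myl2, which did not pass with all 6 libraries, stood at -9.85. Strit1, Myh7b and Myl3, described below, stood at -9.87, -7.98 and -6.13, against -5.70, -5.02 and -3.93 with all 6. The part of ventricular RNA in the fold counts was not tested. All atrial libraries lay above all infarcted ones in CPM in 3374 genes (25.1%), and below them in 3839 (28.5%). List members named below were picked by small p, which favours groups that do not overlap. When 1 of the 6 libraries was left out, 2277 to 3611 genes were higher and 2305 to 3591 lower. Counts of list members in such fits are to be read beside these totals.

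**Figure D1:**
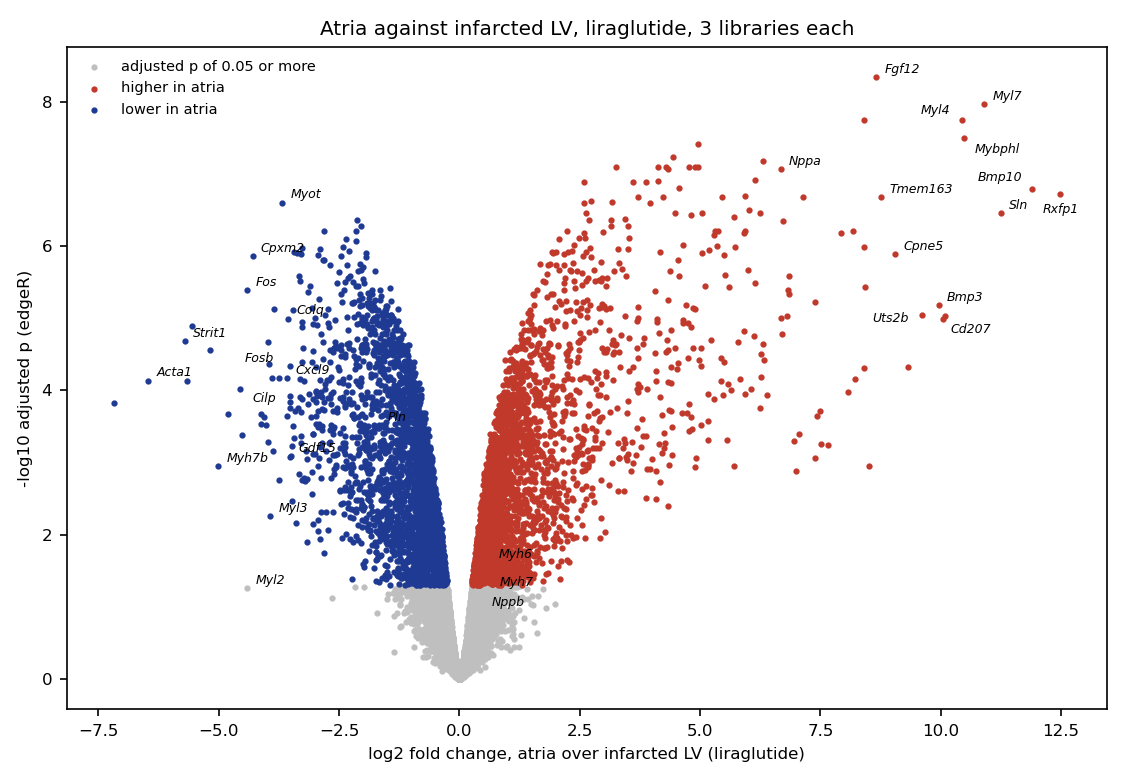
Log2 fold change of atria over infarcted LV with liraglutide (x axis) against minus log10 of the adjusted p (y axis) for the 13457 genes tested, with 2968 higher and 2849 lower genes in colour and named genes labelled. The atrial side reaches 12.47 (Rxfp1), while the lowest named gene, Acta1, lies at -6.46.

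Atrial cardiomyocyte markers were mostly higher in the atria. Of 22 members tested, 19 were higher and 3 lower in the atria, with a median log2 fold change of 3.58. Myl7, the atrial regulatory light chain, had 4527, 4815 and 3705 CPM in atria, against 2.49, 2.33 and 2.31 CPM in infarcted LV (log2 fold change 10.91, SE 0.258, adjusted p = 1.06e-08). Myl4, the atrial essential light chain, had 6253, 6955 and 5383 CPM in atria, against 4.15, 5.63 and 4.14 CPM in infarcted LV (log2 fold change 10.45, SE 0.276, adjusted p = 1.77e-08). Sln, whose product sarcolipin inhibits the calcium pump of the sarcoplasmic reticulum, had 1803, 2116 and 1413 CPM in atria, against 0.276, 1.16 and 0.852 CPM in infarcted LV (log2 fold change 11.25, SE 0.407, adjusted p = 3.45e-07). In each of these genes replicate 2 was the highest and replicate 3 the lowest atrial library, yet each atrial library was far above every infarcted one.

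Nppa encodes atrial natriuretic peptide, which lowers blood pressure and salt load. It had 29777, 34802 and 26623 CPM in atria, against 262, 352 and 329 CPM in infarcted LV, a 102-fold difference (log2 fold change 6.67, SE 0.241, adjusted p = 8.63e-08). Nppa was far above 0 in the infarcted libraries, but the lowest atrial library was still many times the highest infarcted one. Dkk3, a secreted protein of the Dickkopf family, had 1575, 1689 and 1328 CPM in atria, against 4.33, 4.56 and 5.48 CPM in infarcted LV (log2 fold change 8.40, SE 0.225, adjusted p = 1.77e-08). Fgf12, an intracellular relative of the fibroblast growth factors that modulates sodium channels, had 129, 121 and 144 CPM in atria, against 0.369, 0.358 and 0.244 CPM in infarcted LV (log2 fold change 8.65, SE 0.175, adjusted p = 4.53e-09). The 3 markers that were lower in the atria, named for that reason, were the potassium channel gene Kcna5 (log2 fold change -2.14, SE 0.102, adjusted p = 4.39e-07), the vasodilator peptide gene Adm (-0.53, adjusted p = 0.0349) and the T-box gene Tbx3 (-0.91, adjusted p = 0.00249). Kcna5 had 23.2, 22.8 and 27.2 CPM in atria, against 108, 106 and 124 CPM in infarcted LV, so the groups did not overlap. The call of Adm was lost without atrial replicate 1, at -0.56 (adjusted p = 0.0633).

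Among the 12 genes that were higher by the largest fold change, Rxfp1, the relaxin receptor, came first. It had 45.1, 50.6 and 58.5 CPM in atria and 0 counts in all 3 infarcted libraries, which makes it at least 529-fold higher against a floor of 3 counts over the group (log2 fold change 12.47, SE 0.333, adjusted p = 1.89e-07). That fitted value depends on the fit's prior count, as does any for a gene at 0 in 1 group. Rxfp1 lies on chromosome 3, 79641611 to 79737880, minus strand, of GRCm38. Bmp10, a ligand of the bone morphogenetic protein family made by atrial cardiomyocytes, had 898, 966 and 733 CPM in atria, against 0.369, 0 and 0.365 CPM in infarcted LV (log2 fold change 11.89, SE 0.398, adjusted p = 1.61e-07). Mybphl, a myosin-binding protein of the atria and conduction system, had 701, 771 and 580.3 CPM in atria, against 0.369, 0.715 and 0.365 CPM in infarcted LV (log2 fold change 10.48, SE 0.296, adjusted p = 3.18e-08). These 3 genes were near or at 0 in infarcted LV and were plainly present in each atrial library.

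Cd207, which encodes langerin, a lectin of Langerhans and related dendritic cells, had 9.60, 7.03 and 11.9 CPM in atria and 0 counts in infarcted LV, at least 99.3-fold higher. Bmp3 had 8.01, 7.83 and 11.2 CPM in atria and 0 counts in infarcted LV, at least 94.1-fold higher. Uts2b, a precursor of a urotensin peptide, had 6.93, 6.22 and 8.15 CPM in atria and 0 counts in infarcted LV, at least 73.0-fold higher. All 3 were also at 0 in the 3 non-infarcted LV libraries with liraglutide. Cpne5, a calcium-dependent phospholipid-binding protein, gave 2722 counts in atria and 3 in infarcted LV, a depth-corrected ratio of 542 with a 95% counting interval of 185 to 2629, which covers counting error only. Tmem163, a zinc transporter, had 159, 146 and 111 CPM in atria, against 0.276, 0.447 and 0.244 CPM in infarcted LV (log2 fold change 8.75, SE 0.325, adjusted p = 2.08e-07). All 12 genes also passed in the higher direction with PBS, where 26.2% of 13249 genes were higher and 26.1% lower, with log2 fold changes of 7.42 (Cpne5) to 11.45 (Bmp10).

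The promoters of 4 chamber genes are shown because their transcripts set atria and infarcted LV apart in both directions. Each is the RefSeq window of GRCm38.p6 from 250 bases before to 50 after the annotated start, 5′ to 3′ on the gene's strand, with matches of the searched motifs in capitals. The motifs, searched on both strands, were TGACGTCA (a cAMP response element), AGGTGT (a core of T-box sites), the CArG box of serum response factor and the TATA motif TATAAA.
Myl7, higher in atria, chr11:5898733-5899032, minus strand: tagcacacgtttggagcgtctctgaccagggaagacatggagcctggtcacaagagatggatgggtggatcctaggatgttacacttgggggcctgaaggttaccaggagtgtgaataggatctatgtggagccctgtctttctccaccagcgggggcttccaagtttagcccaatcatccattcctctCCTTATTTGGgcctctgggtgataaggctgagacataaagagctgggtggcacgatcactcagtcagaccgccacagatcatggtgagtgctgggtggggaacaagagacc
Nppa, higher in atria, chr4:148000472-148000771, plus strand: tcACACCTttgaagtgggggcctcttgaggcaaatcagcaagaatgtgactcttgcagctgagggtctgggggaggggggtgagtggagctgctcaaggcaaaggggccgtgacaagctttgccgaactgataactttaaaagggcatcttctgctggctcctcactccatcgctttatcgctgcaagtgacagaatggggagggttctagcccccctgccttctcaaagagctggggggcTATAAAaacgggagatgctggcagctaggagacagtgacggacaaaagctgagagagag
Myl3, lower in atria, chr9:110763428-110763727, plus strand: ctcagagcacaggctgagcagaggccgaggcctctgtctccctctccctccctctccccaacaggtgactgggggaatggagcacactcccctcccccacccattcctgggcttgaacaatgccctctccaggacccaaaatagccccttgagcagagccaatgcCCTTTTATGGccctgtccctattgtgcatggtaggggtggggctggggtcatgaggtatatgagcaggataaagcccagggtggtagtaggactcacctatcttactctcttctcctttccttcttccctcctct
Acta1, lower in atria, chr8:123894726-123895025, minus strand: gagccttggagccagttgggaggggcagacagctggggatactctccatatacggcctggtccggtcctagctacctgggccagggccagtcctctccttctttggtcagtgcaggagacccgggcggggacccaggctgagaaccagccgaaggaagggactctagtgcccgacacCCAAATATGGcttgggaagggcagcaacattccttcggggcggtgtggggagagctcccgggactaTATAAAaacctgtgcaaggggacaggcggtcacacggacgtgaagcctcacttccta
A CArG box stood in the windows of Myl7, Myl3 and Acta1, genes on both sides of the comparison, and in 1.63% of 32851 mouse promoter windows of that length. The windows of Myl4, Bmp10, Fos, Fosb, Nr4a1 and both RefSeq starts listed for Myl2, not printed, were searched as well and held no CArG box. The Myl2 windows end at 122092773 and 122093238 on chromosome 5, before the gene start given below. The sequence at that gene start was not searched. TATAAA stood in those of Nppa and Acta1 and in 13.6% of all windows. AGGTGT stood in that of Nppa, as its reverse complement, and in 13.7% of all windows. TGACGTCA stood in none of the 4 and in 1.79% of all windows. The 4 windows were chosen after the values were seen, and a match describes letters only.

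**Figure D2:**
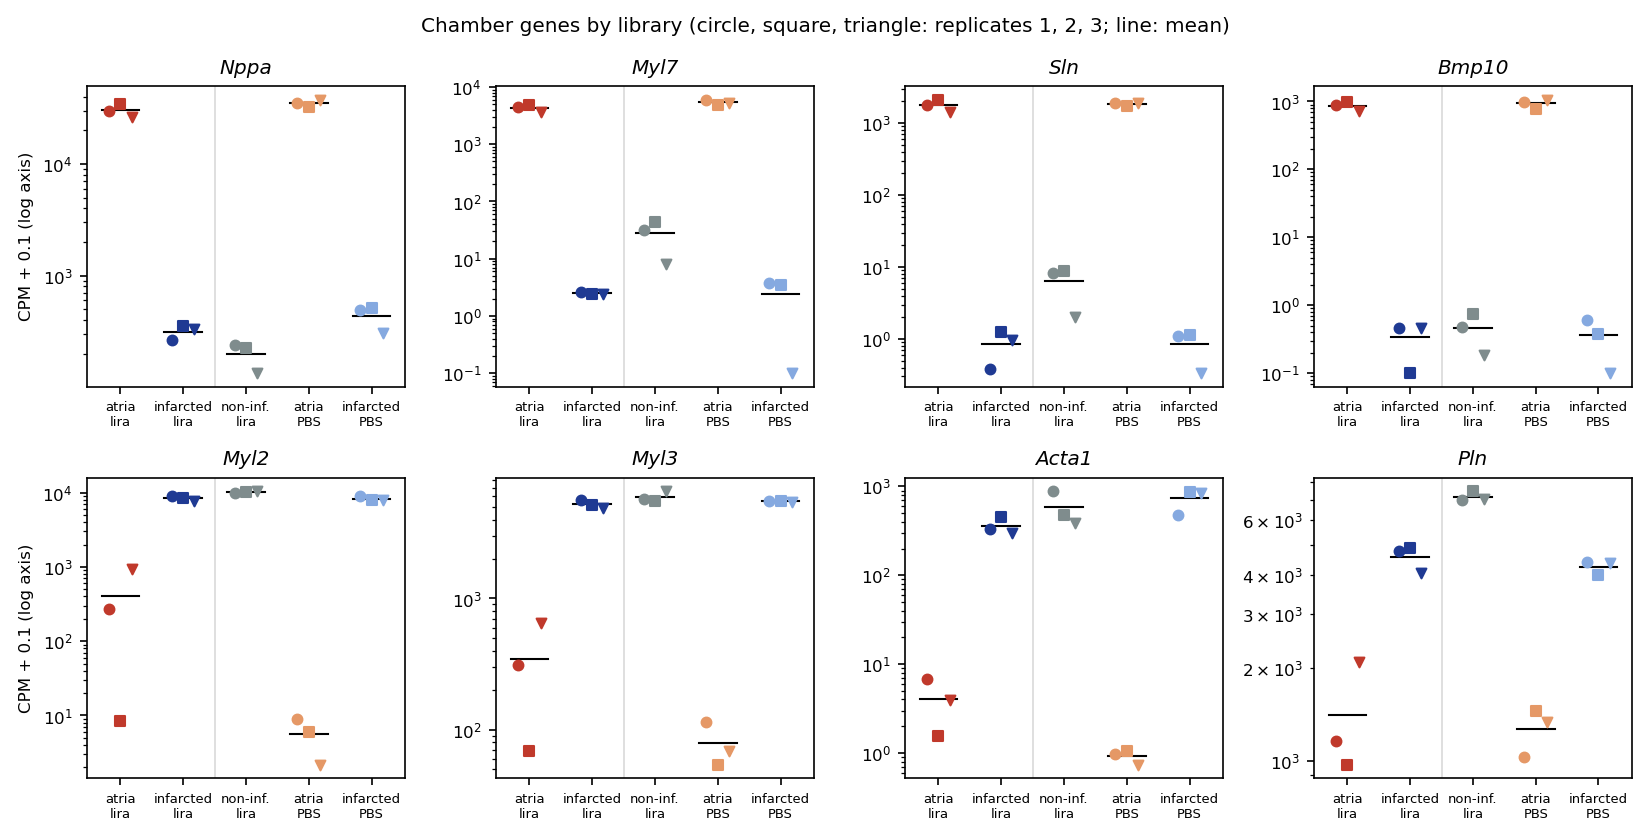
CPM + 0.1 on a log axis of atrial and ventricular genes in each library, with atria before infarcted LV for liraglutide and for PBS and non-infarcted LV with liraglutide between them. Markers are replicates and lines are group means. The Myl2 panel shows atrial liraglutide replicates 1 and 3 at 275 and 924 CPM, against 8.30 CPM in replicate 2.

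Ventricular genes were lower in the atria as a group, but the atrial libraries differed widely among themselves. Of 17 ventricular cardiomyocyte markers tested, 11 were lower and 2 higher in the atria, with a median of -1.68. Without atrial replicates 1 and 3 the median was -2.27. Summed over the list, atria ran from 1920 to 4757 CPM and infarcted LV from 18770 to 21949 CPM. Atrial replicate 3 was the highest atrial library in 15 of the 17 genes and replicate 2 the lowest in 12. In atrial libraries with PBS the same sum was 2320 to 2476 CPM.

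Myl2 had 275, 8.30 and 924 CPM in atria, against 9050, 8457 and 7695 CPM in infarcted LV. The groups did not overlap, yet the gene did not pass (log2 fold change -4.41, SE 1.44, adjusted p = 0.0549). Its atrial values spanned more than 100-fold. Without atrial replicates 1 and 3 together its log2 fold change was -9.85, with no spread to measure in the single atrial library left. It was -4.25 (adjusted p = 0.212) without replicate 1, -3.83 (adjusted p = 0.000722) without replicate 2 and -5.74 (adjusted p = 0.0890) without replicate 3, and leaving out infarcted replicate 3 gave an adjusted p of 0.0447. With PBS it was -10.46 (adjusted p = 4.95e-06). Myl2 lies on chromosome 5, 122100951 to 122113472, plus strand.

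Myl3, the ventricular essential light chain, had 311, 68.2 and 650.0 CPM in atria, against 5644, 5144 and 4936 CPM in infarcted LV, and was lower (log2 fold change -3.93, SE 0.727, adjusted p = 0.00547). It followed Myl2 in the order of the atrial libraries, with replicate 3 the highest and replicate 2 the lowest. Its log2 fold change was -6.13 without both libraries and -6.15 with PBS. Acta1, skeletal alpha actin, a gene of fetal and stressed muscle, had 6.64, 1.47 and 3.80 CPM in atria, against 331, 448 and 302 CPM in infarcted LV, an 88.2-fold lower level in atria (log2 fold change -6.46, SE 0.486, adjusted p = 7.29e-05). Myh7b, a slow myosin whose intron holds miR-499, had 3.97, 0.602 and 10.1 CPM in atria, against 177, 178 and 153 CPM in infarcted LV (log2 fold change -5.02, SE 0.647, adjusted p = 0.00111). Strit1 encodes a small peptide that activates the calcium pump. It had 0.0722, 0 and 0.412 CPM in atria, against 12.3, 8.32 and 11.7 CPM in infarcted LV (log2 fold change -5.70, SE 0.490, adjusted p = 2.08e-05). In each of these genes the lowest infarcted library was well above the highest atrial one. The ranking by fold change that holds these genes required groups without overlap. The part of ventricular RNA in Acta1, Myh7b and Strit1 was not tested beyond the values without both libraries, -7.80, -7.98 and -9.87.

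Fhl2, Kcnip2, Lbh, Irx5 and Pln, further ventricular markers, varied less than Myl2 among the atrial libraries. Fhl2, a LIM-domain protein of the Z-disc, had 311, 267 and 394 CPM in atria, against 1318, 1170 and 1080 CPM in infarcted LV (log2 fold change -1.82, SE 0.139, adjusted p = 7.65e-06). Kcnip2, a subunit of the transient outward potassium channel, had 51.0, 41.6 and 63.2 CPM in atria, against 195, 169.8 and 153 CPM in infarcted LV (log2 fold change -1.68, SE 0.139, adjusted p = 1.24e-05). Lbh, a cofactor of transcription, had 83.6, 73.7 and 100.4 CPM in atria and 249, 250.4 and 199 CPM in infarcted LV (log2 fold change -1.39, SE 0.132, adjusted p = 2.91e-05), and the homeobox gene Irx5 1.01, 1.07 and 1.33 CPM in atria and 6.08, 5.81 and 8.04 CPM in infarcted LV (log2 fold change -2.46, SE 0.241, adjusted p = 3.33e-05). Pln, which encodes phospholamban, the brake of the calcium pump in ventricular muscle, had 1166, 974 and 2088 CPM in atria, against 4772, 4900 and 4064 CPM in infarcted LV (log2 fold change -1.67, SE 0.223, adjusted p = 0.000300). None of these 5 genes overlapped between the groups, but all except Pln were picked by small p, which favours this. Without atrial replicates 1 and 3 Pln stood at -2.10. Some members of the list moved more, such as Irx4 and Mpped2, named after their values were seen. They stood at -2.66 and -2.51 without atrial replicate 2 and at -9.98 and -3.85 without replicates 1 and 3. The 2 list members that were higher were Myh7 and the pericyte proteoglycan gene Cspg4, named for that reason, and between 0 and 1 member was higher when any 1 of the 6 libraries was left out.

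Sarcomere and Z-disc genes moved both ways. Of 20, which include the atrial gene Mybphl, 10 were higher and 3 lower in the atria (median 0.41). Without infarcted replicate 1 and infarcted replicate 3, 4 and 5 were higher, where 2277 of 13824 and 2395 of 13810 genes tested were higher. Tpm2, beta tropomyosin, had 333, 318 and 243 CPM in atria, against 40.2, 23.2 and 29.2 CPM in infarcted LV (log2 fold change 3.36, SE 0.244, adjusted p = 1.69e-05). Mybpc3, cardiac myosin-binding protein C, had 1859, 1669 and 1767 CPM in atria, against 3958, 3932 and 3315 CPM in infarcted LV (log2 fold change -1.02, SE 0.144, adjusted p = 0.000342). Tnnc1, troponin C, had 1109, 1181 and 1019 CPM in atria and 2042, 2270 and 1925 CPM in infarcted LV (log2 fold change -0.84, SE 0.151, adjusted p = 0.00140). In each of these 3 genes, picked by small p, the atrial and infarcted libraries were apart. Myh6, the alpha myosin heavy chain and the largest single share of counts in every library, had 47738, 48758 and 41536 CPM in atria, against 34460, 36093 and 27680 CPM in infarcted LV (log2 fold change 0.56, SE 0.181, adjusted p = 0.0295). Myh7, the beta heavy chain, had 366, 377 and 390.4 CPM in atria, against 244, 349 and 200.3 CPM in infarcted LV (log2 fold change 0.57, SE 0.200, adjusted p = 0.0444). Both calls were weak: that of Myh6 was lost without atrial replicate 1 (adjusted p = 0.103) or 2 (0.0854) or infarcted replicate 1 (0.0964) or 3 (0.106). That of Myh7 was lost without any single atrial library (0.0997, 0.0979 and 0.0618 for replicates 1, 2 and 3) and without infarcted replicate 1 (0.148) or 3 (0.130). Against non-infarcted LV, Myh6 stood at 0.05 (adjusted p = 0.759) and Myh7 at -0.68 (0.000385). Myot, a Z-disc protein, had 6.28, 5.42 and 6.50 CPM in atria, against 73.6, 95.3 and 74.9 CPM in infarcted LV, and was lower in every atrial library to a like extent (log2 fold change -3.69, SE 0.161, adjusted p = 2.48e-07).

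Of 14 calcium handling genes, 6 were higher and 4 lower (median 0.28), and 1 or 2 were lower without atrial replicate 1 or 2 or infarcted replicate 1 or 2. In those fits 2305 to 2589 genes were lower, against 2849 with all 6 libraries. Slc8a1, the sodium-calcium exchanger, had 597, 728 and 837 CPM in atria, against 378, 321 and 300.2 CPM in infarcted LV (log2 fold change 1.17, SE 0.133, adjusted p = 8.85e-05). Ryr2, the calcium release channel, had 2351, 2778 and 3060 CPM in atria, against 1785, 1833 and 1557 CPM in infarcted LV (log2 fold change 0.72, SE 0.134, adjusted p = 0.00183), and the kinase gene Camk2d was higher too (log2 fold change 0.96, SE 0.112, adjusted p = 0.000109). S100a1, a calcium sensor that supports the pump, was lower, at 255, 256 and 217 CPM in atria and 433, 421 and 424 CPM in infarcted LV (log2 fold change -0.74, SE 0.137, adjusted p = 0.00184). Of 14 pacemaker and conduction genes, 10 were higher and 3 lower (median 1.20). The T-type calcium channel gene Cacna1h had 367, 397 and 316 CPM in atria, against 12.9, 11.6 and 13.8 CPM in infarcted LV (log2 fold change 4.90, SE 0.173, adjusted p = 8.07e-08). Hcn4, the main pacemaker channel of the sinoatrial node, had 23.6, 40.0 and 35.4 CPM in atria, against 11.6, 11.6 and 10.8 CPM in infarcted LV (log2 fold change 1.60, SE 0.185, adjusted p = 0.000101). The connexin gene Gjc1 was lower (log2 fold change -1.20, SE 0.124, adjusted p = 4.78e-05). For Cacna1h and Hcn4, picked by small p, the groups were apart.

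Of 13 chamber transcription factors, 6 were higher and 2 lower (median 0.34). Etv1, a factor of fast-conducting atrial muscle, had 19.7, 24.5 and 33.0 CPM in atria, against 7.28, 9.03 and 8.16 CPM in infarcted LV (log2 fold change 1.70, SE 0.170, adjusted p = 3.78e-05), and Hand2 was higher as well (log2 fold change 0.93, SE 0.159, adjusted p = 0.00106). Hey1, a target of Notch signalling, had 5.78, 6.82 and 7.09 CPM in atria, against 23.7, 21.1 and 34.8 CPM in infarcted LV (log2 fold change -1.94, SE 0.186, adjusted p = 2.95e-05). Against non-infarcted LV, at 3.64, 7.71 and 9.09 CPM, the value for Hey1 was -0.06 (adjusted p = 0.891). Irx3, a factor of the ventricular conduction system, was lower against both ventricular regions, at -1.56 (adjusted p = 0.000614) against infarcted LV and -2.82 (4.36e-06) against non-infarcted LV.

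Most genes of mitochondrial fuel use tested were lower in the atria. Of 20 fatty acid oxidation genes, 16 were lower and 1 higher (median -0.77), and of 24 nuclear-encoded respiratory chain subunits, 19 were lower and 0 higher (median -0.51). Acadm, medium-chain acyl-CoA dehydrogenase, had 445, 443 and 537 CPM in atria, against 1188, 1145 and 1085 CPM in infarcted LV (log2 fold change -1.20, SE 0.111, adjusted p = 2.47e-05). Fabp3, the heart fatty acid-binding protein, had 621, 646 and 704 CPM in atria, against 1792, 1811 and 1549 CPM in infarcted LV (log2 fold change -1.33, SE 0.125, adjusted p = 2.72e-05), and Eci1, an enoyl-CoA isomerase, 85.3, 79.6 and 93.5 CPM in atria and 226, 214 and 216 CPM in infarcted LV (log2 fold change -1.28, SE 0.0972, adjusted p = 7.33e-06). The groups did not overlap for any of these genes, which were picked by small p. Among respiratory chain genes, Ndufb5 (log2 fold change -0.78, SE 0.105, adjusted p = 0.000245) and Ndufa9 (-0.74, SE 0.113) of complex I, Uqcrc2 (-0.68, SE 0.106) of complex III and Cox8b (-0.92, SE 0.137) of complex IV were lower. Without atrial replicates 1 and 3, the medians of the fatty acid and respiratory chain genes were -0.74 and -0.44.

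Ucp3 was the 1 fatty acid gene that was higher. It encodes a mitochondrial uncoupling protein, and it had 63.5, 73.0 and 83.0 CPM in atria, against 16.3, 20.7 and 12.4 CPM in infarcted LV (log2 fold change 2.19, SE 0.180, adjusted p = 1.3e-05). Non-infarcted LV had more of it than the atria, at 186, 166 and 119.7 CPM (log2 fold change -1.11, SE 0.147, adjusted p = 0.000238). Against non-infarcted LV, 19 of the 20 fatty acid genes and 22 of the 24 respiratory chain genes were lower in the atria, with medians of -1.21 and -0.76. Over all 13431 genes tested there, 22.9% were lower and 24.6% higher. Both comparisons share the 3 atrial libraries, so their values are not independent.

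Of 19 glycolysis and hypoxia genes, 12 were lower and 2 higher (median -0.51). Egln3, an oxygen-sensing prolyl hydroxylase that hypoxia induces, had 28.8, 31.2 and 30.9 CPM in atria, against 149.7, 134 and 136 CPM in infarcted LV (log2 fold change -2.14, SE 0.107, adjusted p = 6.12e-07), with 93.1, 86.2 and 87.1 CPM in non-infarcted LV. Vegfa, the main vascular growth factor, had 307, 295 and 338 CPM in atria, against 739, 805 and 736 CPM in infarcted LV (log2 fold change -1.22, SE 0.113, adjusted p = 2.46e-05). Slc16a3, the lactate exporter MCT4, had 14.1, 10.6 and 13.7 CPM in atria, against 35.9, 49.9 and 43.6 CPM in infarcted LV (log2 fold change -1.70, SE 0.167, adjusted p = 3.54e-05). Non-infarcted LV had less of Slc16a3 than the atria, at 4.32, 4.97 and 8.17 CPM (log2 fold change 1.14, SE 0.243, adjusted p = 0.00376). Car9, a carbonic anhydrase and a common hypoxia marker, ran the other way, with 10.3, 7.83 and 7.18 CPM in atria, against 1.66, 0.984 and 1.10 CPM in infarcted LV (log2 fold change 2.81, SE 0.297, adjusted p = 5.46e-05).

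Early response genes were lower in the atria than in infarcted LV, and many were higher than in non-infarcted LV. Of 18 immediate early and AP-1 genes, 14 were lower and 1 higher in atria than in infarcted LV (median -1.51), whereas 0 were lower and 11 higher than in non-infarcted LV (median 1.10). Fos had 80.7, 47.0 and 58.1 CPM in atria, against 1139, 1320 and 1698 CPM in infarcted LV, a 21.3-fold lower level in atria (log2 fold change -4.41, SE 0.260, adjusted p = 4.1e-06). Non-infarcted LV had 17.1, 38.3 and 73.0 CPM of Fos, which overlapped the atria (0.54, adjusted p = 0.443). Egr1, a zinc-finger factor, had 237, 133 and 222 CPM in atria, against 1685, 1871 and 1947 CPM in infarcted LV (log2 fold change -3.16, SE 0.211, adjusted p = 4.35e-06). Fosb had 21.9, 14.6 and 11.2 CPM in atria, against 174, 207 and 192 CPM in infarcted LV (log2 fold change -3.52, SE 0.284, adjusted p = 4.58e-05). The orphan receptor gene Nr4a1 (log2 fold change -2.79, SE 0.201, adjusted p = 9.09e-06) and the phosphatase gene Dusp1 (log2 fold change -1.71, SE 0.141, adjusted p = 1.19e-05) were lower too. For these 5 genes all 3 infarcted libraries lay above all 3 atrial ones. The ranking by fold change, which holds Fos and Fosb, required this. The 1 higher member, named for that reason, was Fosl1 (1.46, adjusted p = 0.0459), and no member was higher without atrial replicate 1 or 2 or without any single infarcted library. Gdf15, a stress cytokine, had 2.17, 1.34 and 0.366 CPM in atria, against 12.1, 14.8 and 17.2 CPM in infarcted LV (log2 fold change -3.51, SE 0.499, adjusted p = 0.000811).

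**Figure D3:**
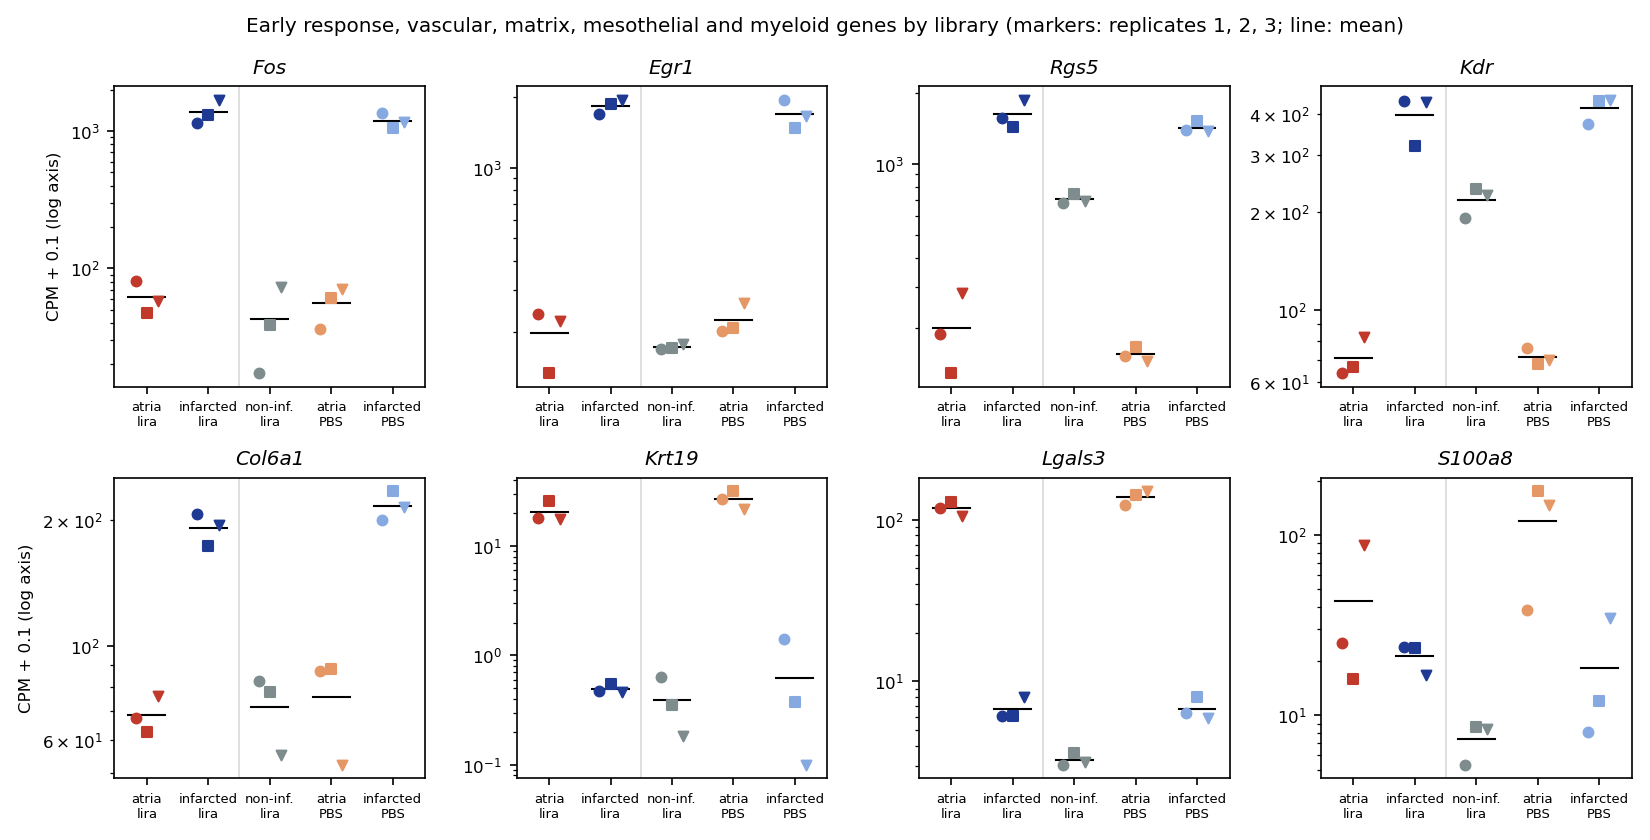
CPM + 0.1 on a log axis of early response, vascular, matrix, mesothelial and myeloid genes in each library, with atria before infarcted LV for liraglutide and for PBS and non-infarcted LV with liraglutide between them. Fos and Egr1 are low in the atria and in non-infarcted LV and high in infarcted LV. Krt19 and Lgals3 are high in the atria, and S100a8 stands at 25.1, 15.8 and 87.9 CPM in the atria with liraglutide.

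Matrix genes were lower in the atria than in the infarcted region and not in the same way against non-infarcted LV. Of 17 collagens, 12 were lower and 1 higher (median -0.93), against 2 lower and 5 higher beside non-infarcted LV (median 0.22). Col15a1, a basement membrane collagen of vessels and muscle, had 55.1, 42.6 and 73.3 CPM in atria, against 276, 209 and 232 CPM in infarcted LV (log2 fold change -2.02, SE 0.160, adjusted p = 9.72e-06), with 95.5, 83.6 and 53.4 CPM in non-infarcted LV. The 3 chains of collagen VI were lower by similar amounts: Col6a1 -1.42 (SE 0.102), Col6a2 -1.28 (SE 0.117) and Col6a3 -1.50 (SE 0.146). Col6a1 had 67.4, 62.3 and 76.2 CPM in atria, against 206, 173 and 194 CPM in infarcted LV, so the groups were apart.

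Of 17 activated fibroblast genes, 12 were lower and 2 higher (median -0.78). Of 15 resting fibroblast genes, 10 were lower and 2 higher (median -0.93), with 6 lower without atrial replicate 1. Without atrial replicates 1 and 3 the medians of these lists were -1.10 and -1.43. Thbs1, a thrombospondin that activates TGF-beta, had 440.0, 308 and 366 CPM in atria, against 1071, 1226 and 1163 CPM in infarcted LV (log2 fold change -1.57, SE 0.164, adjusted p = 5.02e-05). Its relative Thbs2 had 6.93, 5.95 and 13 CPM in atria, against 51.8, 54.3 and 69.3 CPM in infarcted LV (log2 fold change -2.69, SE 0.229, adjusted p = 2.75e-05), and the collagen cross-linking enzyme gene Loxl2 was lower as well (log2 fold change -1.80, SE 0.162, adjusted p = 2.14e-05). Smoc2, a matrix protein of resting fibroblasts, had 16, 18.3 and 35.9 CPM in atria, against 162, 124 and 173 CPM in infarcted LV (log2 fold change -2.66, SE 0.244, adjusted p = 6.42e-05). In Thbs2 and Smoc2 atrial replicate 3 was the highest of the 3.

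A few matrix genes went the other way. Ccn4, a matricellular target of Wnt signalling, had 16.2, 21.7 and 27.6 CPM in atria, against 0.922, 0.626 and 1.22 CPM in infarcted LV (log2 fold change 4.64, SE 0.251, adjusted p = 9.53e-07). Fmod, a small proteoglycan that binds collagen, had 26.3, 39.5 and 21.2 CPM in atria, against 0.645, 0.805 and 1.46 CPM in infarcted LV (log2 fold change 5.02, SE 0.395, adjusted p = 2.55e-05). In both genes every atrial library was more than 10 times every infarcted one. Of 18 matrix proteases and inhibitors, 8 were lower and 0 higher (median -0.31), and 2 were higher without atrial replicate 2. Without atrial replicates 1 and 3 the median was -0.85. The inhibitor gene Timp4 (log2 fold change -2.68, SE 0.231, adjusted p = 4.09e-05) and the aggrecanase gene Adamts4 (log2 fold change -2.15, SE 0.199, adjusted p = 4.36e-05) were lower, with Adamts4 at 51.8, 34.4 and 48.9 CPM in atria, 168, 192 and 265 CPM in infarcted LV and 21.6, 23.5 and 19.8 CPM in non-infarcted LV. Cilp, a matrix protein of cartilage and of fibroblasts in the stressed heart, had 1.37, 2.07 and 4.85 CPM in atria, against 26.9, 30.5 and 45.1 CPM in infarcted LV (log2 fold change -3.51, SE 0.364, adjusted p = 0.000174). Cpxm2, a carboxypeptidase-like protein, had 1.73, 1.07 and 3.11 CPM in atria, against 43.3, 39.4 and 42.4 CPM in infarcted LV (log2 fold change -4.30, SE 0.238, adjusted p = 1.38e-06), and Colq, which anchors acetylcholinesterase, 0.361, 0.736 and 1.05 CPM in atria and 9.86, 8.76 and 9.01 CPM in infarcted LV (log2 fold change -3.57, SE 0.285, adjusted p = 1.01e-05). The groups did not overlap in any of these 3 genes, which was a condition of naming them.

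Most vessel genes tested were lower in the atria than in infarcted LV. Of 20 endothelial genes, 13 were lower and 4 higher (median -1.23). Against non-infarcted LV, 8 were lower and 6 higher (median -0.20), where 22.9% of all genes tested were lower and 24.6% higher. Kdr, the main receptor of vascular growth factor, had 63.6, 66.5 and 82.3 CPM in atria, against 439, 319.6 and 434 CPM in infarcted LV (log2 fold change -2.43, SE 0.132, adjusted p = 1.01e-06). Flt1, its decoy relative, had 132, 138 and 184 CPM in atria, against 530.3, 549 and 692 CPM in infarcted LV (log2 fold change -1.91, SE 0.133, adjusted p = 4.43e-06), and Fabp4, a lipid carrier of capillary endothelium and fat, 203, 210.0 and 247 CPM in atria and 729, 699 and 952 CPM in infarcted LV (log2 fold change -1.79, SE 0.131, adjusted p = 6.14e-06). Plvap, a protein of fenestrated and venous endothelium, was higher, at 72.1, 74.4 and 66.3 CPM in atria and 14.1, 12.3 and 11.2 CPM in infarcted LV (log2 fold change 2.56, SE 0.149, adjusted p = 1.36e-06). The 3 further genes that were higher, named for that reason, were Npr3 (3.16, adjusted p = 2.25e-05), Vwf (1.16, 0.000148) and Emcn (0.37, 0.0312), the last of which lost its call without atrial replicate 2 (adjusted p = 0.0892). Of 15 smooth muscle and pericyte genes, 10 were lower and 3 higher (median -1.28), against 8 lower and 3 higher beside non-infarcted LV (median -0.74). Rgs5, a pericyte marker, had 190.1, 129 and 284 CPM in atria, against 1566, 1427 and 1869 CPM in infarcted LV (log2 fold change -2.97, SE 0.227, adjusted p = 1.24e-05), and the pericyte potassium channel gene Kcnj8 12.1, 9.37 and 18.5 CPM in atria and 84.9, 68.1 and 96.2 CPM in infarcted LV (log2 fold change -2.58, SE 0.195, adjusted p = 1.04e-05). In Rgs5 and Kcnj8 the atrial libraries kept the order of Myl2, with replicate 3 the highest and replicate 2 the lowest. Without atrial replicates 1 and 3 Rgs5 and Kcnj8 stood at -3.51 and -3.01.

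Genes of the epicardium and mesothelium, the outer lining of the heart, were mostly higher in the atria. Of 15 epicardial and mesothelial genes, 11 were higher and 1 lower in the atria (median 4.77). Summed over the list, atria held 262 to 365 CPM and infarcted LV 64.3 to 68.2 CPM. Krt19 had 18.2, 25.8 and 17.8 CPM in atria, against 0.369, 0.447 and 0.365 CPM in infarcted LV (log2 fold change 5.73, SE 0.312, adjusted p = 1.01e-06). Krt8 (log2 fold change 5.52, SE 0.319, adjusted p = 2.54e-06) and Krt18 (log2 fold change 4.11, SE 0.308, adjusted p = 1.12e-05), the other simple epithelial keratins named, and Upk1b (log2 fold change 4.89, SE 0.371, adjusted p = 7.44e-06), a uroplakin of mesothelium, were higher in every atrial library. Wt1, a factor of activated epicardium that vessel cells of injured muscle also express, was the 1 lower member, named for that reason, with 6.71, 9.30 and 8.01 CPM in atria, against 25.1, 28.9 and 29.6 CPM in infarcted LV (log2 fold change -1.73, SE 0.157, adjusted p = 2.18e-05). Without atrial replicate 3, 3 members were lower. Against non-infarcted LV, 12 were higher and 0 lower.

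Fat, nerve and neighbouring tissue gave mixed counts. Of 9 adipocyte genes tested, 5 were higher and 4 lower. With PBS, 1 was higher and 1 lower of 6 tested. Plin4, which coats lipid droplets in fat and muscle, had 948, 1002 and 942 CPM in atria, against 419, 499.7 and 389 CPM in infarcted LV (log2 fold change 1.21, SE 0.147, adjusted p = 0.000134), and Lpl, which releases fatty acids from lipoproteins, 2794, 2964 and 4111 CPM in atria and 7644, 7702 and 7201 CPM in infarcted LV (log2 fold change -1.14, SE 0.139, adjusted p = 0.000134). Of 12 nerve and Schwann cell genes, 3 were higher and 3 lower (median -0.35), with a median of -0.59 without atrial replicates 1 and 3. Mbp, a myelin protein, had 24.0, 28.4 and 29.3 CPM in atria, against 3.78, 3.04 and 4.02 CPM in infarcted LV (log2 fold change 2.98, SE 0.151, adjusted p = 6.28e-07), and Dbh, an enzyme of noradrenaline synthesis, 10.8, 10.6 and 8.88 CPM in atria and 2.67, 1.16 and 2.44 CPM in infarcted LV (log2 fold change 2.35, SE 0.287, adjusted p = 0.000135). Stmn2, a neuronal microtubule protein, was lower, at 1.23, 1.81 and 2.38 CPM in atria and 11.4, 8.94 and 13 CPM in infarcted LV (log2 fold change -2.54, SE 0.237, adjusted p = 2.59e-05). None of 10 lung and airway genes reached the count filter.

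Myeloid genes depended on which atrial libraries were kept. Of 18 genes of recruited monocytes and macrophages, 5 were higher and 1 lower (median 0.39), but without atrial replicates 1 and 3 the median was -0.40. Leaving out infarcted replicate 1 or 3 gave 3 higher, and leaving out any 1 library gave 0 to 2 lower. Atrial replicate 3 was the highest atrial library in 15 of these 18 genes, in all 11 resident macrophage genes, in all 13 neutrophil genes and in 17 of 18 cytokine and chemokine genes. It was also the library with the most Myl2. The part of that library in these counts was not tested further.

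Lgals3, which encodes galectin-3, a lectin of macrophages that epithelial and mesothelial cells also make, had 118, 129 and 105 CPM in atria, against 5.99, 5.99 and 7.92 CPM in infarcted LV (log2 fold change 4.23, SE 0.177, adjusted p = 2.08e-07). Cd44, the hyaluronan receptor, had 205, 202 and 142 CPM in atria, against 33.0, 34.3 and 38.4 CPM in infarcted LV (log2 fold change 2.46, SE 0.201, adjusted p = 2.12e-05). Both were higher in every atrial library, and replicate 3 was the lowest of the 3. Plac8 (log2 fold change 2.42, SE 0.439, adjusted p = 0.00206) and Ly6c2 (log2 fold change 2.04, SE 0.627, adjusted p = 0.0270), genes of circulating monocytes, were higher too, and highest in replicate 3. Plac8 had 4.12, 5.49 and 13.9 CPM in atria, against 1.75, 1.16 and 1.58 CPM in infarcted LV, and Ly6c2 1.44, 1.00 and 5.08 CPM in atria, against 0.737, 0.447 and 0.731 CPM in infarcted LV. The call of Ly6c2 was lost without infarcted replicate 1 (adjusted p = 0.0740), 2 (0.0991) or 3 (0.0746), and without both atrial libraries it stood at 0.79. In that fit Lgals3, Cd44 and Plac8 stood at 4.42, 2.66 and 2.00. Csf1r, Cd68 and Cd14 of the same list, named for being lower there, stood at -1.10, -1.22 and -1.49. Among 11 resident macrophage genes, 3 were higher and 1 lower, against 2 and 5 lower without atrial replicates 2 and 3 in turn. The median of this list was 0.03, and -0.88 without replicates 1 and 3 together. Cbr2, the lower member, stood at -1.29 (adjusted p = 0.00417), and at -2.07 without replicates 1 and 3. Lyve1, which marks resident macrophages and lymphatic vessels, had 117, 114 and 138 CPM in atria, against 48.3, 64.1 and 58.8 CPM in infarcted LV (log2 fold change 1.17, SE 0.126, adjusted p = 6.44e-05), and Vsig4, a complement receptor of macrophages, 10.0, 6.89 and 15.1 CPM in atria and 0.645, 0.447 and 1.58 CPM in infarcted LV (log2 fold change 3.70, SE 0.401, adjusted p = 8.23e-05).

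Of 13 neutrophil genes, 1 was higher and 1 lower, although the median was 1.11. Without atrial replicates 1 and 3 the median was -0.13. With PBS, 8 were higher and 1 lower (median 2.64), and 8 were higher with liraglutide when atrial replicate 2 was left out. Without that library 2378 of 13544 genes tested were higher. S100a8, an alarmin of neutrophils, was picked once its values were known and had 25.1, 15.8 and 87.9 CPM in atria, against 23.9, 23.5 and 16.6 CPM in infarcted LV. The groups overlapped and S100a8 did not pass (log2 fold change 1.01, SE 0.580, adjusted p = 0.210). Csf3r, the receptor of granulocyte colony-stimulating factor, had 29.9, 18.7 and 74.2 CPM in atria, against 15.6, 23.0 and 15.2 CPM in infarcted LV. It did not pass either (log2 fold change 1.20, SE 0.458, adjusted p = 0.0735), but did without atrial replicate 2 (adjusted p = 0.0115). Csf3r stood at 0.56 (adjusted p = 0.106) without atrial replicate 3 and at 0.18 without replicates 1 and 3. Lcn2, the higher member, which injured muscle also makes, had 99.6, 102 and 120.1 CPM in atria, against 47.2, 55.6 and 43.7 CPM in infarcted LV (log2 fold change 1.19, SE 0.122, adjusted p = 4.66e-05), and G0s2, the lower one, 7.22, 8.5 and 14.3 CPM in atria and 37.4, 24.6 and 39.9 CPM in infarcted LV (log2 fold change -1.70, SE 0.225, adjusted p = 0.000331).

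Inflammatory cytokine and chemokine genes also depended on the atrial libraries kept. Of 18, 5 were lower and 1 higher (median -0.55), where 21.2% of all genes tested were lower and 22.1% higher. Without atrial replicates 1 and 3 the median was -1.50. Leaving out atrial replicate 1 gave 3 lower and leaving out replicate 3 gave 8. None was higher without atrial replicate 1 or infarcted replicate 1 or 2. Il6 had 14.5, 6.36 and 24.8 CPM in atria, against 60.5, 55.2 and 144 CPM in infarcted LV (log2 fold change -2.44, SE 0.535, adjusted p = 0.0110). Its call was lost without atrial replicate 1 (adjusted p = 0.0703), and without both atrial libraries it stood at -3.61. Ccl3, a chemokine of activated macrophages, had 0.505, 0.535 and 1.83 CPM in atria, against 6.91, 5.37 and 5.36 CPM in infarcted LV (log2 fold change -2.49, SE 0.388, adjusted p = 0.000621). Tnf (log2 fold change -2.27, SE 0.517, adjusted p = 0.00562) and Ccl4 (log2 fold change -2.11, SE 0.495, adjusted p = 0.00735) were lower at levels of a few CPM or less. With PBS the list had 2 lower and 6 higher (median 0.74), where Il6 stood at -0.72 (adjusted p = 0.290). Against non-infarcted LV, 11 were higher and 0 lower.

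Interferon genes were mostly lower in the atria than in infarcted LV. Of 17 tested, 13 were lower and 0 higher (median -1.0), with 1 higher without atrial replicate 2. Against non-infarcted LV, 3 were higher and 5 lower (median -0.09), where 24.6% of all genes tested were higher and 22.9% lower. Rsad2, an antiviral enzyme, had 4.77, 3.21 and 6.54 CPM in atria, against 40.5, 32.6 and 54.2 CPM in infarcted LV, with 25.1, 20.1 and 22.3 CPM in non-infarcted LV (log2 fold change -3.05, SE 0.232, adjusted p = 1.2e-05 against infarcted LV). Ifit2 (log2 fold change -2.0, SE 0.272, adjusted p = 0.000366), Ifi44 (log2 fold change -2.05, SE 0.344, adjusted p = 0.00114) and the tetherin gene Bst2 (log2 fold change -1.06, SE 0.145, adjusted p = 0.000274) were lower as well. Cxcl9, a chemokine that interferon gamma induces, had 1.37, 1.00 and 1.19 CPM in atria, against 14.7, 8.23 and 22.4 CPM in infarcted LV (log2 fold change -3.59, SE 0.366, adjusted p = 6.65e-05). Its groups did not overlap, which was a condition of naming it. Of 10 MHC class II and dendritic cell genes, 5 were lower and 3 higher. Leaving out 1 library gave 2 (without atrial replicate 3) to 6 lower and 0 (without infarcted replicate 2 or 3) to 2 higher. The median of this list was -0.66, and -0.99 without atrial replicates 1 and 3. H2-Aa, a class II chain, had 50.1, 26.8 and 58.6 CPM in atria, against 114, 84.1 and 82.7 CPM in infarcted LV (log2 fold change -1.0, SE 0.249, adjusted p = 0.0126), and Clec9a, a receptor of cross-presenting dendritic cells, 1.81, 2.61 and 3.25 CPM in atria and 6.17, 5.90 and 10.8 CPM in infarcted LV (log2 fold change -1.49, SE 0.283, adjusted p = 0.00200). Of 20 lymphocyte genes only 5 reached the filter, and 4 of them were lower, each at no more than a few CPM. Of 14 cell cycle genes, 2 were lower and 0 higher, and 6 were lower without atrial replicate 3, where 3591 of 13504 genes tested were lower. Cenpf, a kinetochore protein, had 3.39, 3.41 and 6.96 CPM in atria, against 13.6, 10.7 and 15.7 CPM in infarcted LV (log2 fold change -1.47, SE 0.246, adjusted p = 0.000942).

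**Figure D4:**
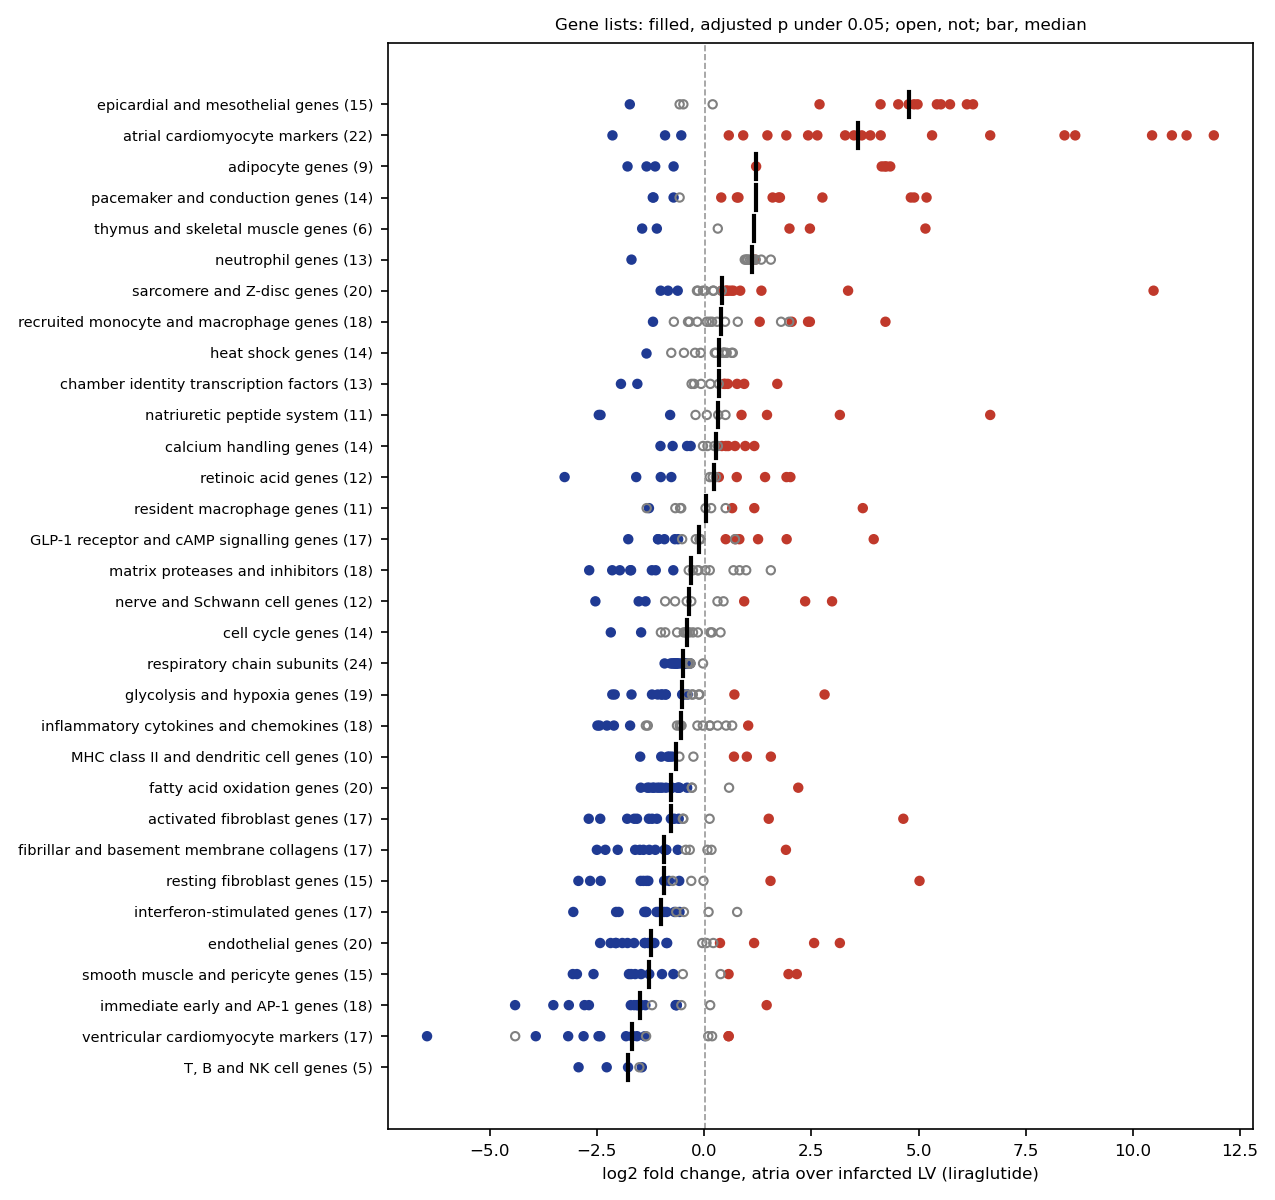
Log2 fold change of atria over infarcted LV with liraglutide (x axis) of each tested gene (points, filled red or blue where the gene passed) in each list (rows, with the number tested), and the median of each list (black bar). The epicardial and mesothelial list has the highest median shown, 4.77, and nearly all neutrophil genes are open points to the right of 0 (median 1.11, against -0.13 without atrial replicates 1 and 3).

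Heat shock genes varied widely among the atrial libraries. Of 14, 0 were higher and 1 lower, although with PBS 10 were lower. Atrial replicate 3 was the lowest atrial library in 13 of the 14, and without it 5 were higher. In that fit 3611 of 13504 genes tested were higher. Hspa1a, an inducible Hsp70 picked once its values were known, had 2061, 956 and 166 CPM in atria, against 506, 634 and 1299 CPM in infarcted LV (log2 fold change 0.52, SE 0.918, adjusted p = 0.683). Its atrial libraries spanned more than 10-fold and overlapped the infarcted ones on both sides, and its reads may be split with its near-identical copy Hspa1b. The 1 lower member, Hspb6, a small heat shock protein of muscle, had 463, 394 and 415 CPM in atria, against 1104, 1240 and 1093 CPM in infarcted LV (log2 fold change -1.37, SE 0.140, adjusted p = 4.61e-05).

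Glp1r, the receptor that liraglutide binds, was scarce. It had 1.66, 0.602 and 0.732 CPM in atria, which is 48 counts over 3 libraries, against 0.0922, 0 and 0 CPM in infarcted LV, which is 1 count. The depth-corrected ratio was 28.7 with a 95% counting interval of 4.90 to 1155, and Glp1r did not reach the filter for the test. Its highest atrial library was replicate 1. Of 17 cAMP signalling genes tested, 6 were higher and 6 lower (median -0.11). Adcy5, an adenylyl cyclase, had 199, 203 and 167 CPM in atria, against 92.8, 88.9 and 68.6 CPM in infarcted LV (log2 fold change 1.26, SE 0.170, adjusted p = 0.000295). The cAMP sensors Rapgef3 (log2 fold change -1.08, SE 0.115, adjusted p = 5.94e-05) and Rapgef4 (log2 fold change -1.07, SE 0.133, adjusted p = 0.000149) were lower.

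In the natriuretic peptide system, 4 of 11 genes were higher and 3 lower. Corin, the protease that cuts the precursor of atrial natriuretic peptide, had 604, 667 and 760.2 CPM in atria, against 275, 256 and 234 CPM in infarcted LV (log2 fold change 1.46, SE 0.116, adjusted p = 9.76e-06). Npr3, the clearance receptor, had 99.9, 110.1 and 189.5 CPM in atria, against 17.2, 17.0 and 11.1 CPM in infarcted LV (log2 fold change 3.16, SE 0.242, adjusted p = 2.25e-05). Mme, the peptidase neprilysin that degrades these peptides, had 1.37, 1.20 and 2.20 CPM in atria, against 9.58, 8.68 and 9.50 CPM in infarcted LV (log2 fold change -2.46, SE 0.226, adjusted p = 2.37e-05). All 3, picked by small p, were apart between the groups. Nppb, the gene of B-type peptide and a marker of wall stress, did not pass: it had 1654, 1309 and 1151 CPM in atria, against 906, 1056 and 1121 CPM in infarcted LV (log2 fold change 0.50, SE 0.186, adjusted p = 0.0538). Its adjusted p was 0.00121 without atrial replicate 3, and its log2 fold change was 0.48 without replicates 1 and 3. Against non-infarcted LV, at 364, 491 and 522 CPM, it was higher in the atria (log2 fold change 1.59, SE 0.212, adjusted p = 0.000396).

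Retinoic acid genes, which pattern the atria, gave 5 higher and 4 lower of 12. Cyp26b1, which degrades retinoic acid, had 2.45, 2.61 and 2.56 CPM in atria, against 37.1, 18.7 and 20.1 CPM in infarcted LV (log2 fold change -3.26, SE 0.282, adjusted p = 2.55e-05). Aldh1a3, which makes it, had 11.8, 9.84 and 19.4 CPM in atria, against 3.41, 3.49 and 4.38 CPM in infarcted LV (log2 fold change 1.92, SE 0.235, adjusted p = 0.000137). The receptor gene Rarg (log2 fold change -1.59, SE 0.132, adjusted p = 1.27e-05) and the reductase gene Dhrs3 (log2 fold change -1.01, SE 0.129, adjusted p = 0.000179) were lower. Leaving out atrial replicate 1 or 2 or infarcted replicate 2 or 3 gave 3 higher members.

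The same comparison in PBS-treated mice rests on 6 other libraries. There 6925 genes (52.3%) differed, 3466 higher and 3459 lower in the atria. Atrial PBS replicate 2 stood apart in genes of fat cells, with Adipoq, picked once its values were known, at 1.02, 79.2 and 0.319 CPM in the 3 atrial PBS libraries, and without that library 6650 genes differed. Over the 13154 genes tested under both treatments, 2912 were higher with liraglutide and 3431 with PBS. They shared 2529, which is 86.8% of the liraglutide genes and 73.7% of the PBS genes. Of the genes lower in the atria, 2790 with liraglutide and 3441 with PBS, 2466 were shared, or 88.4% and 71.7%. Of the genes called with liraglutide, 98.9% in each direction had the same sign with PBS, and 1 was called in the opposite direction. The log2 fold changes of the 2 treatments had a Pearson r of 0.932 and a Spearman rho of 0.900 across these genes, a description over genes that are not independent of each other.

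**Figure D5:**
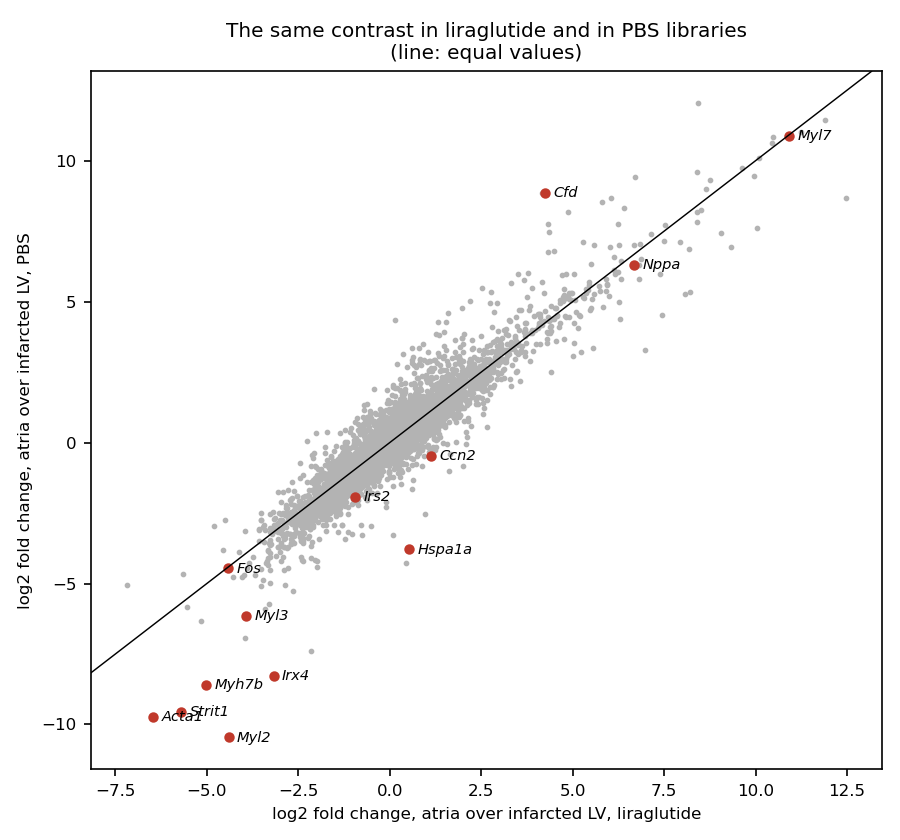
Log2 fold change of atria over infarcted LV with PBS (y axis) against that with liraglutide (x axis) for the 13154 genes tested in both, with the line of equal values drawn and named genes in red. Genes spread along the line, and Myl2 and Acta1 lie nearer 0 with liraglutide (-4.41 and -6.46) than with PBS (-10.46 and -9.74).

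A test of the difference itself, over the 12 libraries of both treatments, called 1 of 13748 genes (0.00727%), with 738 (5.37%) at an unadjusted p under 0.05. DESeq2 called 26 of the 10270 genes it gave an adjusted p (0.253%). The 1 gene was Irs2, an adaptor of the insulin receptor, on chromosome 8, 10984681 to 11008458, minus strand. Irs2 had 111, 93.9 and 125 CPM in atria with liraglutide, against 208, 218 and 238 CPM in infarcted LV with liraglutide. With PBS it had 53.0, 52.4 and 50.5 CPM in atria, against 202, 194 and 186 CPM in infarcted LV. It was lower in the atria under both treatments, with a log2 fold change of -0.95 (SE 0.111) with liraglutide and -1.93 (SE 0.0872) with PBS. The difference of the 2 log2 fold changes was 0.99 (SE 0.132, adjusted p = 0.0300), so the gap was smaller with liraglutide.

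The count of 1 depended on single libraries and settings. Without atrial PBS replicate 2 or without any 1 infarcted library of either treatment, 0 genes passed, and 0 passed with the replicate number as a block. Without atrial liraglutide replicate 3, 77 genes passed, and without replicate 2 11 did. Ccn2, a matricellular protein with the next smallest p, was picked once its values were known and had 2258, 1633 and 1770 CPM in atria, against 785, 954 and 971 CPM in infarcted LV with liraglutide. With PBS it had 682, 577 and 809 CPM in atria, against 1001, 906 and 929.6 CPM in infarcted LV, and its difference did not pass (log2 fold change 1.62, SE 0.237, adjusted p = 0.0534). Myl2 differed by 6.06 between treatments (SE 1.68, adjusted p = 0.706) and Acta1 by 3.28 (SE 0.725, adjusted p = 0.555), neither of which passed.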

How the data were processed

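Bulk RNA sequencing was used in 18 libraries, 3 a group, of which 6 are compared here. Per the labels' protocols, RNA was extracted with TRIzol and libraries were made with a stranded TruSeq kit for mRNA. The authors deposited whole, unscaled counts for each gene symbol. The aligner was STAR 2.7.9a and the build mm10, with DESeq2 also named, per the submitters' processing notes. How reads were counted, with which annotation and whether by strand, is not given in the sources used here, so overlapping genes may share reads, among them Rxfp1 with Gm26984, Myl3 with Pth1r, Myl2 with Ccdc63, Pln with Cep85l, Myh7 with Mhrt and Myh7b with Trpc4ap.

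Counts were fitted with edgeR 4.0.16 in R 4.3.3 (filterByExpr, TMM factors, robust quasi-likelihood fit without a replicate block), and the SE is the size of the log2 fold change divided by the root of F. The difference between treatments was an interaction term over 12 libraries. No pair of libraries of a group was a repeat by a chi-square test of their counts. Of 555 symbols in 34 gene lists, 475 were tested. Members and lists were chosen with earlier results of these data known. Named genes are, in each direction, the top 12 by fold change among those that passed with a mean of at least 50 counts and no overlap, up to 4 of each list with the smallest p, and a fixed set of chamber genes with Glp1r. For the top 12, groups without overlap were thus a condition and not a result. For list members picked by small p, such groups were made likely by the choice. Coordinates are those of GENCODE M21. The scripts were tested on simulated data. Alternatives were DESeq2 1.42.0, limma 3.58.1 voom, other scalings and filters, thinning, a replicate block and left-out libraries. Values of 2 list members are not reported here.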

Additional observations from a re-analysis of the deposited data

Results flagged for a closer look

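Irs2, the insulin receptor adaptor, is listed because its difference between atria and infarcted LV was not the same under liraglutide as under PBS. The interaction term over 12 libraries was 0.985 on the log2 scale (SE 0.132, edgeR adjusted p = 0.0300). The 3 atrial libraries with liraglutide, at 111, 93.9 and 125 CPM, all lay above the 3 with PBS, at 53.0, 52.4 and 50.5 CPM, while infarcted LV had 208, 218 and 238 CPM with liraglutide and 202, 194 and 186 CPM with PBS.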

How the results depend on the processing

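Of 17 alternatives for the 5817 genes that differed between atria and infarcted LV, 16 gave a count within 1.5 times. A test against a log2 threshold of 1 gave 1235, with 633 higher and 602 lower, because it asks for a larger change. The other settings gave 5410 (library totals only) to 7582 (voom with quality weights), and leaving out each library in turn gave 4582 to 7202. With the replicate number as a block the count was 5724, with PBS 7006 and against non-infarcted LV 5950. The numbers were not used as pairs, since the deviations of same-numbered atrial and infarcted libraries correlated at -0.038, 0.036 and 0.059. Pairs with unlike numbers ran from -0.085 to 0.079. With 3 libraries a group these values cannot decide whether the same number marks the same heart.

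The 1 gene whose region difference depended on treatment became 0 with the replicate block, with library totals only and in 1 fit of all 18 libraries. It became 2 without a filter, 12 with voom, 26 with DESeq2 and 40 without both atrial libraries with Myl2. Leaving out each of the 12 libraries gave 0 to 77. The cause was not tested.

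Over all alternatives, 2528 of 2648 values of named genes kept direction and side of the threshold, 74 lost the call, 44 gained it and 2 changed sign. Most of these genes were picked by fold change or small p in these data, so this share does not hold for all genes tested. S100a8 stood at -0.32 without both atrial libraries, and Hspa1a ran from -0.43 without atrial replicate 1 to 1.05 without atrial replicate 3. Of 1088 list counts 144 moved by more than 1.5 times. With 3 libraries a group and totals of 8211804 to 21853482 counts, 3 counts equal 0.137 to 0.365 CPM. Glp1r did not reach the count filter.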

Other observations

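Besides Plin4, the adipocyte genes that were higher in the atria were Adipoq, Cfd, Cidec and Plin1, all best known from fat cells and picked once their values were known. Adipoq, which encodes the fat hormone adiponectin, had 4.84, 1.61 and 3.89 CPM in atria, against 0, 0 and 0.609 CPM in infarcted LV (log2 fold change 4.34, SE 0.868, adjusted p = 0.00405). Cfd, the fat-derived complement factor adipsin, had 25.4, 8.16 and 23.3 CPM in atria, against 0.737, 1.25 and 1.10 CPM in infarcted LV (log2 fold change 4.25, SE 0.512, adjusted p = 0.000383), and Cidec, a lipid droplet protein, 7.51, 2.61 and 6.22 CPM in atria, against 0.184, 0.447 and 0.244 CPM in infarcted LV (log2 fold change 4.21, SE 0.542, adjusted p = 0.000220). In all 3 genes atrial replicate 2, the library with least Myl2, was the lowest of the 3. In the atrial libraries with PBS 1 library stood apart, with Adipoq at 1.02, 79.2 and 0.319 CPM and Cfd at 3.54, 417 and 1.44 CPM, so replicate 2 there held far more fat transcript than any atrial library with liraglutide.

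Transcripts of fast skeletal muscle were present in the atria at a few CPM. Tnni2, fast skeletal troponin I, had 7.51, 6.49 and 5.31 CPM in atria, against 0.922, 1.88 and 0.731 CPM in infarcted LV (log2 fold change 2.47, SE 0.361, adjusted p = 0.000424). Tnnt3, fast skeletal troponin T, was higher as well (log2 fold change 1.99, SE 0.440, adjusted p = 0.00477). The muscle creatine kinase gene Ckm, which heart muscle also uses, was lower, at 469, 433 and 489 CPM in atria and 1091, 1087 and 947 CPM in infarcted LV (log2 fold change -1.10, SE 0.123, adjusted p = 7.68e-05). Mylpf, a fast skeletal myosin light chain, was lower too, at 0.361, 0.870 and 0.641 CPM in atria and 1.57, 1.16 and 2.80 CPM in infarcted LV (log2 fold change -1.45, SE 0.433, adjusted p = 0.0215). Its call was lost without atrial replicate 1 at -1.24 (adjusted p = 0.0602), and it stood at -0.89 without replicates 1 and 3. Of 6 thymus and skeletal muscle genes tested, 3 were higher and 2 lower in the atria, with 1 lower without atrial replicate 1 or infarcted replicate 3. Alas2, the only red cell gene of its list to be tested, had 17.3, 25.2 and 49.1 CPM in atria, against 54.8, 45.6 and 50.3 CPM in infarcted LV. It did not pass (log2 fold change -0.68, SE 0.284, adjusted p = 0.0898), but was lower without atrial replicate 3, at -1.10 (adjusted p = 5.17e-05). Without replicates 1 and 3 it stood at -0.86.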
